A study of Mus musculus with 4 samples.

Results

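The epidermal differentiation complex is a block of neighbouring genes, most of which are switched on late as keratinocytes turn into cornified cells. Its members outside the Sprr and S100 families were taken here by position alone, as all non-control spots of a 1.7-Mb interval of mouse chromosome 3 (build mm9) whose gene name did not start with Sprr or S100, and their probes ran from position 91828756 to 93474462. The rule gave 100 of 59305 spots on the array, or 91 of 55681 probes, for 63 genes or transcripts of 35019 in all. The 63 were 13 Lce1 genes, 5 Lce3 genes, the 7 fused S100-type genes, loricrin with involucrin (2), 12 other named genes, 15 unnamed transcripts and 9 transcripts of a long intergenic RNA tiling design. A gene was tested if a probe of it stood well above background in both mice of 1 group or more, which held for 53 members and for 23753 genes in all, and the 10 that were not tested were 5 intergenic RNAs, 2 unnamed transcripts, Smcp, Tdpoz1 and Tdpoz2.

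RNA came from whole mouse ear tissue 48 h after the contact sensitiser 2,4-dinitrofluorobenzene (DNFB). The 2 controls, labelled wild type, carried RelAfl/fl, in which the gene for the RelA subunit of NF-kB carries loxP sites, and the 2 mutants were K14Cre RelAfl/fl, in which a keratin 14 promoter drives Cre in basal keratinocytes and their descendants, hair follicle cells included. All 4 mice therefore had the floxed allele and DNFB, the Cre was in the mutants alone so that its own effect and that of RelA loss cannot be told apart, and no ear without DNFB was analysed here. From 100 ng of RNA, each sample was hybridised to 1 one-colour (Cy3) array, and beyond the words for the mice nothing in the labels says how the samples were collected, so that p-values measure only the spread between these samples.

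In the cornified layer, loricrin and involucrin are cross-linked by transglutaminases into the protein envelope that replaces the plasma membrane, and the small late cornified envelope (LCE) proteins are added beneath it. The Lce1 block is expressed in intact epidermis, whereas LCE3 genes are known from human skin for induction by barrier damage and in psoriasis. Profilaggrin is cut into filaggrin, which packs keratin filaments and is then broken down to hygroscopic amino acids. It belongs with filaggrin-2, hornerin, repetin, cornulin and trichohyalin to a family whose proteins begin with an S100-like calcium-binding domain, and trichohyalin is a main protein of the inner root sheath and medulla of the hair.

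No member passed the threshold of 0.05 on p-values that limma adjusted by Benjamini-Hochberg over all 23753 genes, the smallest being 0.493, and 0.0168% of all genes (4) passed it. At an unadjusted p under 0.05, 1 of 53 members was higher in the mutants, against 2.95% of all genes, and 4 of 53 were lower, against 3.55% of all genes. With arrays centred on their median instead, 4 members were higher and 4 lower, where 6.08% of all genes had an unadjusted p under 0.05 in either direction. The 1 higher was Lce3a, and the 4 lower were Flg2, Lce1m, the unnamed transcript NAP066688-1 and 1 intergenic RNA. In 17 members (32.1%) both mutants lay above both wild types, against 18.9% of all genes, and in 7 (13.2%) both lay below, against 17.4% of all genes. The median difference, mutant minus wild type, was 0.05 over the 53 members and 0.01 over all genes on the log2 scale. All values below are log2 signals relative to the 75th percentile of the array, in the order wild type 1, wild type 2, mutant 1, mutant 2, and a difference is given ± the standard error from limma.

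**Figure D1:**
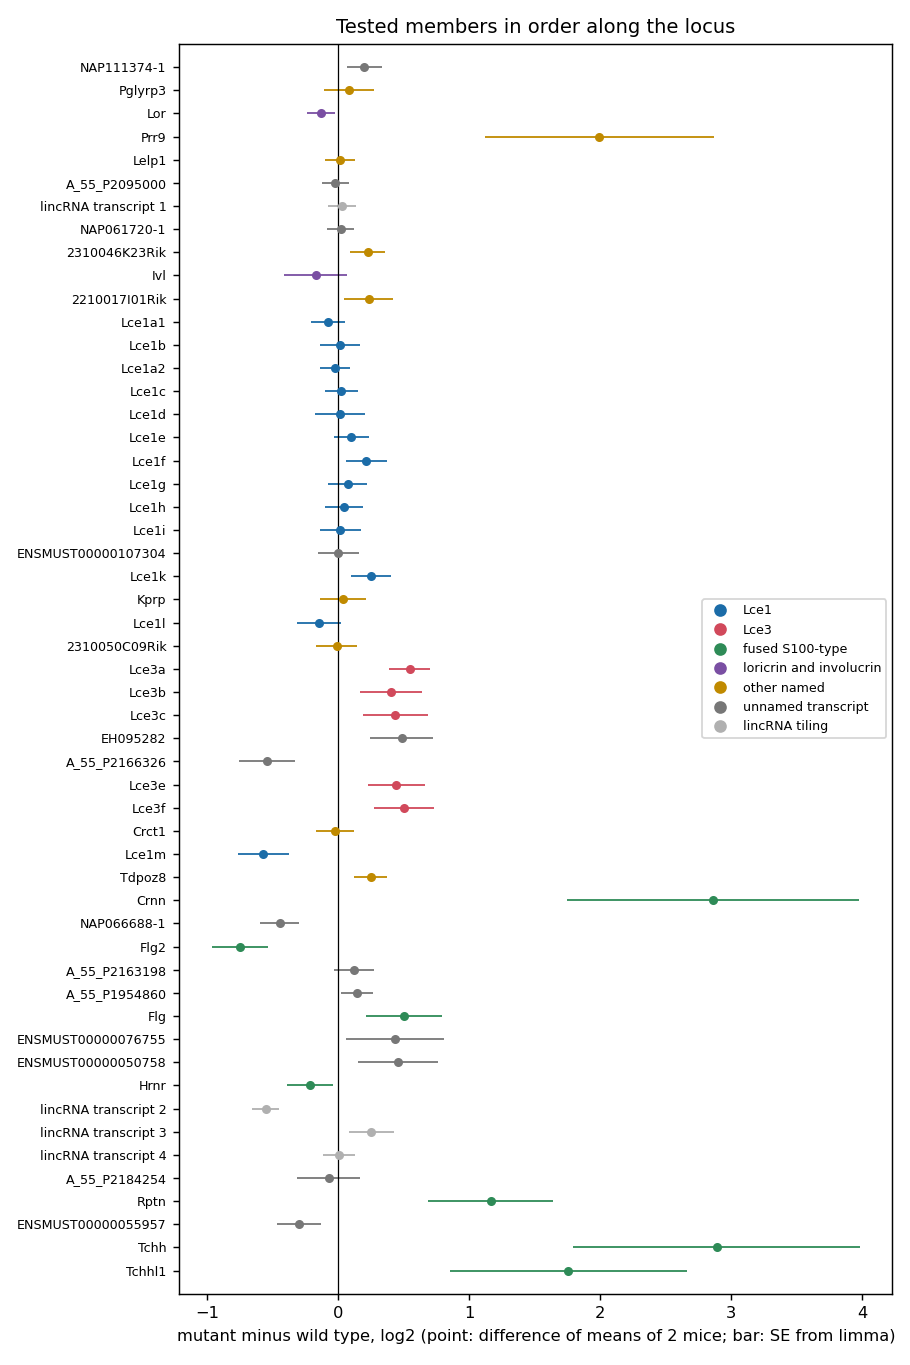
Difference between mutants and wild types (x axis, log2; points are differences of the means of 2 mice and bars the standard error from limma) for the 53 tested members, listed from one end of the locus to the other and coloured by role. The Lce1 genes lie near 0 except Lce1m at -0.57, the Lce3 genes lie between 0.40 and 0.55, and Tchh, Crnn, Prr9, Tchhl1 and Rptn lie above 1 with wide bars.

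The arrays were alike in depth of signal, with a 75th percentile of 589 to 664 intensity units, 61.2% to 64.3% of probes above background, no saturated spot and correlations between arrays of 0.983 to 0.993. The targeted gene, Rela, read 4.48, 4.60, 4.59 and 4.72, a difference of 0.11 ± 0.12 (adjusted p = 0.888 by limma). Its probe lies at chr19:5648070-5648129, and the labels do not say which exons are deleted, so the probe does not check the genotype. The mutant 2 array has a dim corner of 2411 spots (rows 1 to 128, columns 145 to 164) that holds a spot of 4 member probes. A DNFB-treated ear holds epidermis, hair follicles, dermis and infiltrating cells, and in such bulk RNA fewer cells of a type and less RNA per cell cannot be told apart.

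The 2 classical envelope proteins differed little between the groups. Loricrin (Lor, chr3:91884206-91884265) read 8.65, 8.56, 8.46 and 8.48, and both mutants lay below both wild types, with a difference close to its standard error (-0.13 ± 0.11, adjusted p = 0.877 by limma). Involucrin (Ivl) read 1.69, 1.74, 1.22 and 1.88, with the lowest and the highest value both in mutants (-0.17 ± 0.24), and its other probe gave -0.11. Without mutant 1 the involucrin difference was 0.16, so its sign rested on that mouse. Of 14 genes for scaffold proteins and cross-linking enzymes outside the locus, 10 lay above 0 and 4 below, with a median of 0.07. Only the transglutaminase Tgm3 had an unadjusted p under 0.05 in that list (0.40 ± 0.15), and the desmosomal cadherin Dsg1a was lowest (-0.20 ± 0.12).

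The Lce1 genes, which encode the LCE proteins of intact epidermis, stayed within a narrow band with 1 exception. Over the 13 the median difference was 0.02, with 9 above 0 and 4 below, and with quantile normalization it was -0.03, with 5 above 0. Leaving out Lce1m and Lce1k, the lowest and the highest, the other 11 ran from -0.15 (Lce1l) to 0.22 (Lce1f), and in none of the 11 were the groups apart. Those 11 were chosen after their values were seen. Wild type 2 was the lowest array in 10 of the 11, and in 4349 of all 23753 genes. The Lce1h probe matches a probe of Lce1i, other than the one used for that gene, at 56 of 60 positions. Lce1h and Lce1i may therefore not be separate measurements. The median gap between the 2 wild types was 0.24 over the 11, wider than every difference among them, though for Lce1f the difference (0.22) exceeded that gene's own wild-type gap. Lce1k read 4.53, 4.38, 4.55 and 4.86 (0.25 ± 0.15), with both mutants above both wild types and mutant 1 only just so.

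For Lce1b the error of a single spot could be seen, because its probe (chr3:92459579-92459638) is printed 10 times on each array. Its means were 6.19, 5.88, 5.98 and 6.11, while the standard deviation among the kept spots of 1 array was 0.03 to 0.05. The wild types were 0.31 apart and the mutants lay between them. The spread among spots does not hold the differences in labelling, hybridisation and scaling between arrays. On the mutant 2 array 1 of the 10 spots fell in the dim corner, read 0.08 and was left out as an outlier by the scanner software.

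**Figure D2:**
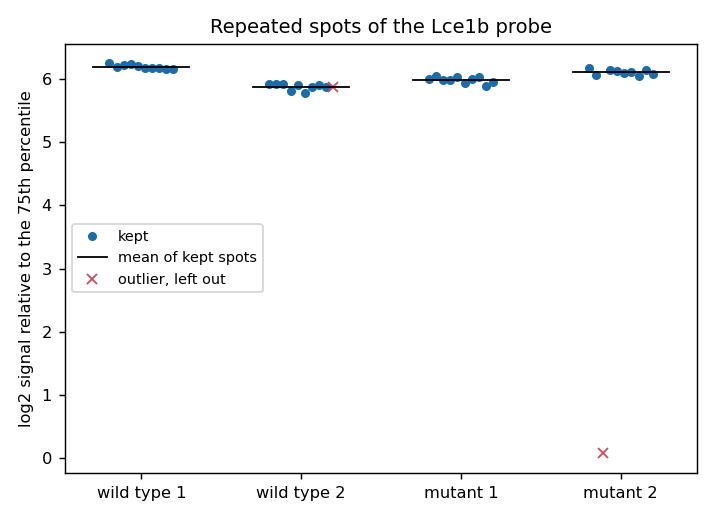
The 10 spots of the Lce1b probe on each array (y axis, log2 signal relative to the 75th percentile of the array), with a line at the mean of the kept spots and crosses for the 2 spots left out as outliers. The arrays differ by more than their spots do, and both mutants (5.98 and 6.11) lie between the wild types (5.88 and 6.19).

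Lce1m, which lies apart from the other Lce1 genes on the far side of the Lce3 block, was lower in the mutants. Its probe (chr3:92821829-92821888) read 5.30, 4.80, 4.50 and 4.46, a 1.49-fold lower level (-0.57 ± 0.19, unadjusted p = 0.037 and adjusted p = 0.737 by limma). Both mutants lay below both wild types, and the gap between the wild types (0.50) was nearly as large as the difference, which was -0.32 without wild type 1. Its neighbours on the 2 sides did not follow it: Crct1, a cysteine-rich epidermal gene, read 6.82, 6.73, 6.61 and 6.90 (-0.02 ± 0.14), and Tdpoz8, of a family of TRAF- and POZ-domain genes that lies in the interval by position only, read 2.25, 2.41, 2.50 and 2.65 (0.25 ± 0.12). Whether Lce1m differs from the other Lce1 genes was not tested.

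The Lce3 genes, known for induction in damaged skin, all read higher in the mutants, by 1.32 to 1.46 times. Lce3a (chr3:92729210-92729269) read 2.32, 2.66, 3.09 and 2.99 and was the only 1 with an unadjusted p under 0.05 (0.55 ± 0.16, unadjusted p = 0.020 and adjusted p = 0.670 by limma). Lce3b read 4.10, 4.71, 4.93 and 4.68, and here wild type 2 reached the mutants (0.40 ± 0.24). Lce3c read 4.41, 5.07, 5.23 and 5.11 (0.44 ± 0.25). Lce3e read 2.38, 2.88, 2.93 and 3.22 (0.44 ± 0.22), and Lce3f read 1.67, 2.26, 2.39 and 2.55 (0.50 ± 0.23), so that in these 3 genes wild type 2 lay close below the mutants. The unnamed transcript EH095282, whose probe lies between those of Lce3c and Lce3e, read 4.86, 5.51, 5.73 and 5.62 (0.49 ± 0.24); it was singled out after its values were seen.

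Over these 6 the mutants lay above both wild types in 5, against 18.9% of all genes. Wild type 1 was the lowest array in 6 of 6, as it was in 8119 of all 23753 genes. The median difference was 0.47 with all mice, 0.18 without wild type 1 and 0.74 without wild type 2. The 3 probes in the middle of the block share most of their letters and may measure each other's RNA, so that they are not separate measurements. Lce3b and Lce3c are identical at 54 of 60 positions, and EH095282 matches Lce3b at 37 and Lce3c at 38 of the 41 positions that overlap. The stretches below, 30 bases of each probe read 5′ to 3′ in the same alignment, show this, with the 4 positions at which the 3 differ in capitals.
Lce3b (probe at chr3:92737872-92737931, + strand): tcttgttttGtctgatcctggaCaCCcttc
Lce3c (probe at chr3:92749506-92749565, + strand): tcttgttttAtctgatcctggaGaGTcttc
EH095282 (probe at chr3:92762371-92762427, + strand): tcttgttttGtctgatcctggaGaACcttc
The Lce3a, Lce3e and Lce3f probes had no such match, and their differences (0.44 to 0.55) were of like size.

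The 4 wound keratins Krt6a, Krt6b, Krt16 and Krt17 lay 0.56 (Krt6b) to 0.67 (Krt6a) higher in the mutants, with Krt17 at an unadjusted p under 0.05, and their summed signal relative to the 75th percentile was 548, 874, 1080 and 1039, with wild type 1 lowest in 4 of 4. The 13 tested Sprr genes of the same interval, small proline-rich envelope proteins, all lay above 0 with a median of 0.44. At an unadjusted p under 0.05 by limma 5 of the 13 were higher, against 2.95% of all genes. Of these 5, Sprr2k read -5.20, -5.34, -4.47 and -4.68, near the background. It was above background on 3 arrays but not in wild type 2, and so passed the filter only through the mutants, where it is high. Wild type 1 was lowest in 11 of these 13 and wild type 2 in the other 2. The part of both gene groups in the Lce3 result was not tested.

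**Figure D3:**
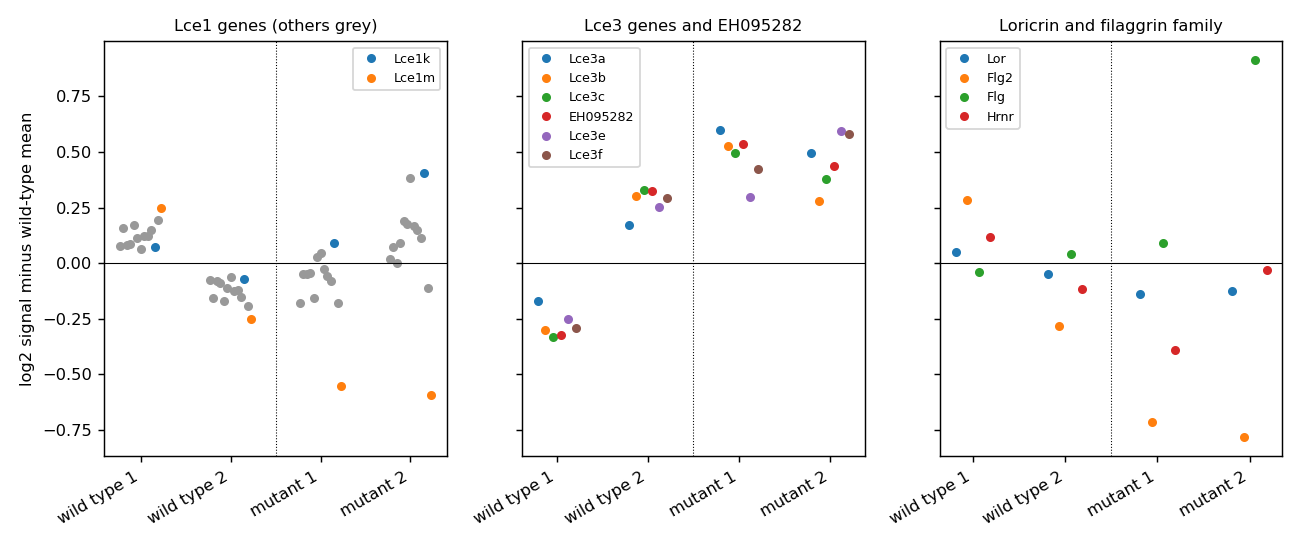
Signal of each gene in each mouse relative to its wild-type mean (y axis, log2; 1 point a gene and mouse; the dotted line parts wild types from mutants), for the Lce1 genes, the Lce3 genes with EH095282, and loricrin with 3 filaggrin-type genes. Wild type 1 is lowest for every Lce3 gene, wild type 2 is lowest for 11 of 13 Lce1 genes, Lce1m and Flg2 are lowest in both mutants, and Flg is high in mutant 2 alone.

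The fused S100-type genes went different ways, with 5 of 7 above 0 and 2 below. Filaggrin-2 (Flg2), a filaggrin-like protein of the cornified layer, was lower in both mutants at 3.84, 3.27, 2.84 and 2.77, a 1.68-fold lower level (-0.75 ± 0.22, unadjusted p = 0.021 and adjusted p = 0.673 by limma). The groups did not overlap, the gap between the wild types was 0.57, and without wild type 1 the difference was -0.46. Its probe, at chr3:93024641-93024700 on the + strand, is open in a single reading frame, with 20 codons and no stop, and is shown because 1 probe carries the result.
Flg2 probe: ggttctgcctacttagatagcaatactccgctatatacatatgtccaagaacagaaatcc
NAP066688-1, an unnamed transcript on the opposite strand whose probe lies at chr3:93007687-93007746 on the near side of Flg2, was also lower at 0.21, -0.07, -0.29 and -0.47 (-0.45 ± 0.15, unadjusted p = 0.036 and adjusted p = 0.737 by limma).

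Filaggrin itself did not follow filaggrin-2. Its probe (Flg, chr3:93083694-93083753) read 4.94, 5.02, 5.07 and 5.90 (0.50 ± 0.29), high in mutant 2 alone, and without that mouse it differed by 0.09. A pair of transcripts that the array annotation also describes as filaggrin gave 0.44 ± 0.37 (ENSMUST00000076755) and 0.46 ± 0.31 (ENSMUST00000050758), each again highest in mutant 2. Hornerin (Hrnr), a filaggrin-like protein, read 3.87, 3.64, 3.36 and 3.72 (-0.21 ± 0.17), with overlapping groups. Of 9 enzymes of filaggrin processing, 6 lay above 0 and 3 below, with a median of 0.21, and none had an unadjusted p under 0.05. Casp14, the caspase of cornifying cells, read 2.42, 2.42, 2.41 and 3.20, and Prss8, a membrane-bound serine protease, was lowest of the list (-0.05 ± 0.17). The highest, Padi3, a deiminase that acts on trichohyalin and filaggrin, read -2.61, -4.42, -2.05 and 0.88 (2.93 ± 1.15). Mutant 2 was highest in 8 of these 9 genes, and in 6610 of all 23753 genes.

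The widest differences of the locus were in trichohyalin and 4 other genes in which mutant 2 was likewise the highest mouse, a set grouped after its values were seen. A highest value in mutant 2 is not particular to them, as it was found in 30 of the 53 members and in 6610 of all 23753 genes. Trichohyalin (Tchh, chr3:93252853-93252912) read 1.95, 0.31, 2.60 and 5.43, which is 7.40 times as high in the mutants by the means of log2 values (2.89 ± 1.10, unadjusted p = 0.051 and adjusted p = 0.773 by limma). Trichohyalin-like 1 (Tchhl1) read 0.04, -0.45, 0.23 and 2.88 (1.75 ± 0.90). Both genes were far higher in mutant 2 than in any other mouse, and mutant 1 lay nearer to wild type 1 than to mutant 2. Repetin (Rptn), an envelope protein, read 0.79, 1.49, 1.70 and 2.91 (1.16 ± 0.48). The proline-rich gene Prr9, near the opposite end of the locus and singled out after its values were seen, read 2.21, 1.29, 2.52 and 4.97 (1.99 ± 0.88).

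Cornulin (Crnn), a squamous epithelial protein, read -4.03, -5.53, -3.41 and -0.43. It was above background in 1 of 2 wild types and both mutants, and so passed the filter only through the group where it is high. Wild type 2 lay below the lowest signal above background on its array (-5.30). The fitted difference of 2.86 ± 1.12, or 1.55 with normexp background correction, is therefore no measure of size, and no bound could be given. The probe, at chr3:92953334-92953393 on the + strand, is open in a frame of 20 codons whose last is a stop, in capitals, and in another of 19 codons without one. It is shown because the level rests on it alone.
Crnn probe: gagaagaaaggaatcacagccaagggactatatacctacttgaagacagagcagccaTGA

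As these 5 genes were grouped by their values, their counts and medians only describe them. The median difference was 1.99, or 1.87 over the 4 without Crnn, but over the 5 it was 0.77 without mutant 2 (Tchh 1.47, Crnn 1.37, Prr9 0.77, Rptn 0.56, Tchhl1 0.43) and 3.22 without mutant 1. With all mice none of the 5 had an unadjusted p under 0.05 by limma. When arrays were centred on their median (6.08% of all genes) or corrected with normexp (6.05%), 3 of the 5 passed that mark. Because the 5 were grouped by a high mutant 2, the fit without mutant 1 rests on the mouse that set the choice. The inner root sheath keratins, which mark the same hair compartment as trichohyalin, ran alike. In this list 7 of 7 lay above 0 with a median of 3.32, from Krt72 (0.46 ± 0.56) to Krt27 (3.57 ± 1.41). At an unadjusted p under 0.05 by limma 2 of these 7 keratins were higher, against 2.95% of all genes. Of these 2, Krt26 read -4.72, -6.05, -3.80 and -0.34. Wild type 2 lay below the lowest signal above background on its array (-5.30), so Krt26 passed the filter only through the mutants, where it is high. Its fitted difference, which is also the list median, is therefore no measure of size. The summed signal of the 7 keratins relative to the 75th percentile was 12.1, 3.101, 16.5 and 124, so that mutant 2 stood far above and wild type 2 below the rest. Of 9 hair cortex keratins 8 were tested, all above 0 with a median of 2.17, from Krt85 (0.20 ± 0.15) to Krt33a (3.22 ± 1.49), and their sums were 28.6, 25.1, 31.3 and 65.9. The part of hair follicle RNA in the differences of Tchh, Tchhl1, Rptn, Prr9 and Crnn was not tested.

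**Figure D4:**
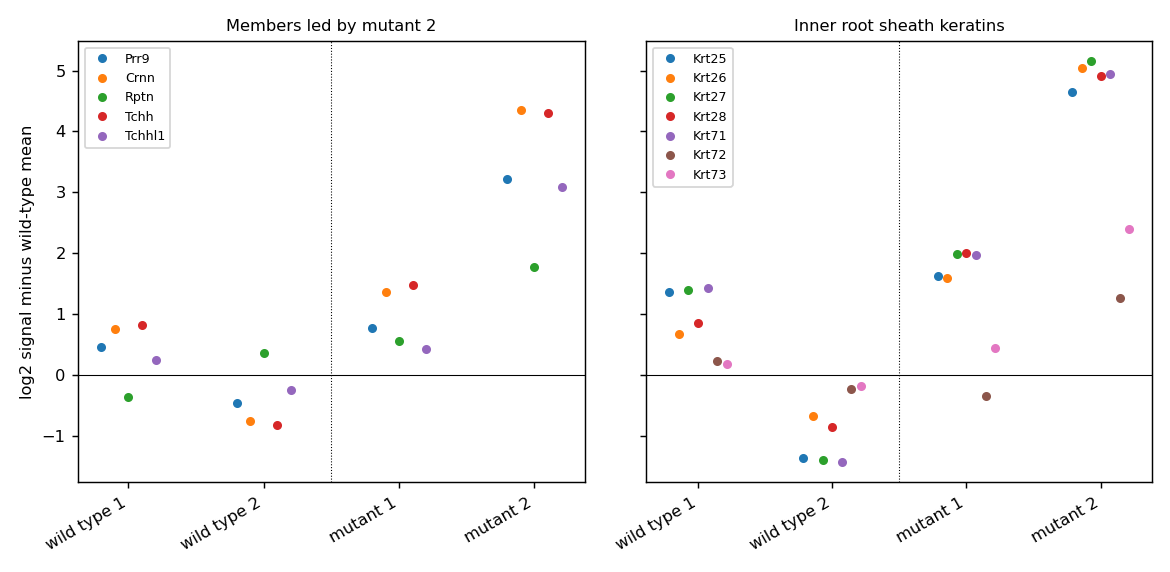
Signal in each mouse relative to the wild-type mean (y axis, log2; 1 point a gene and mouse; the dotted line parts wild types from mutants) for 5 members of the locus and the 7 inner root sheath keratins. Mutant 2 is highest for all 12 genes, and wild type 2 is lowest for 4 of the 5 members and 6 of the 7 keratins.

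**Figure D5:**
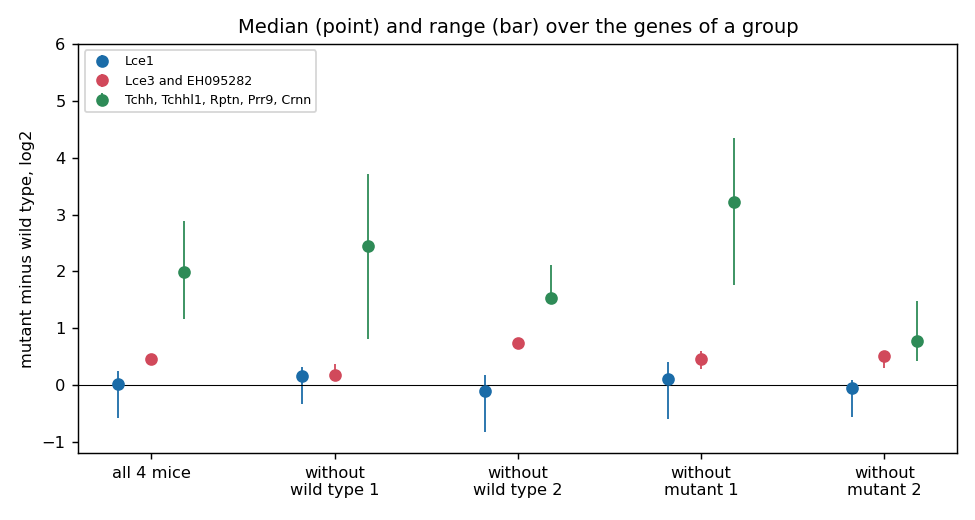
Median (points) and range (bars) of the difference between mutants and wild types (y axis, log2) over the genes of 3 groups, with all 4 mice and with each mouse left out. The Lce1 median stays between -0.10 and 0.17, the Lce3 median falls to 0.18 without wild type 1, and the median of the Tchh group falls to 0.77 without mutant 2.

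Among the remaining named members, Kprp, a proline-rich keratinocyte protein, had its lowest and highest value in the mutants, 5.75 and 6.12 (0.04 ± 0.17), and 2310050C09Rik, Lelp1 and Pglyrp3 differed by -0.01, 0.01 and 0.08. The groups were apart, with the mutants higher, for 2310046K23Rik (0.23 ± 0.13), and overlapped for 2210017I01Rik (0.23 ± 0.19), whose spot on the mutant 2 array lies in the dim corner. ENSMUST00000107304, among the Lce1 genes and described in the array annotation as Lce1J, differed by 0.00 ± 0.16. The unnamed A_55_P2166326 was not well above background in either mutant, and so passed the filter only through the wild types, where it is high. Its bound was a level at least 1.19 times lower in the mutants (measured means -5.15 in wild types and -5.69 in mutants, adjusted p = 0.783 by limma). The wild types (-5.13 and -5.18) lay close to the lowest signals above background on their arrays (-5.62 and -5.30), so the bound tests no difference. Of the 4 tested intergenic RNAs, 1 (probe at chr3:93156225-93156284) read -4.64, -4.61, -5.21 and -5.15 (-0.55 ± 0.10), with an unadjusted p of 0.0043 and an adjusted p of 0.493 by limma, close to the lowest signals above background. With normexp background correction its difference was -0.04. The other probes of that transcript were not above background on any array.

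Genes outside the locus that mark cornifying layers and their surroundings are given for comparison. Of 6 suprabasal keratins, 1 lay above 0 (Krt1, 0.39 ± 0.21) and 5 below, with a median of -0.13; Krt2, a keratin of the upper layers, had an unadjusted p under 0.05 (-0.42 ± 0.13), and Krt77 was lowest (-0.46 ± 0.19). Like Flg2 and Lce1m, both were lower in each mutant than in each wild type. Of 24 regulators reported to act on the locus, 19 lay above 0 and 5 below, with a median of 0.10, from Satb1 (-0.23 ± 0.10) to the AP-1 subunit Fosl1 (0.71 ± 0.45), whose wild types were -2.79 and -1.77. Only Ovol1 had an unadjusted p under 0.05 by limma in that list (0.38 ± 0.11). Both mutants lay above both wild types in 9 of the 24, against 18.9% of all genes. In 2 of the 24 both lay below, against 17.4% of all genes.

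Among lists of markers of other cells of the ear, some had a median below 0 and others above 0. Whether they vary with Flg2 and Lce1m was not tested. Of 5 sebaceous gland genes 4 lay below 0, with a median of -0.37, from Elovl3 (-0.74 ± 0.13) to Awat2 (0.19 ± 0.30), and their summed signal relative to the 75th percentile was 36.2 and 31.9 in wild types against 24.3 and 24.6 in mutants. Of 10 basal keratinocyte genes 7 lay above 0 and 3 below, with a median of 0.13, and Krt15, a basal and follicle keratin, was lowest (-0.74 ± 0.17). Of 4 macrophage genes 3 were lower in both mutants than in both wild types, against 17.4% of all genes. For Csf1r, 1 of the 3, this was all but a tie (mutant 1 at 5.3209, wild type 2 at 5.3211). The macrophage median was -0.14, from Cd68 (-0.40 ± 0.11) to Mrc1 (0.03 ± 0.13). Of 5 neutrophil genes 3 lay below 0, with a median of -0.08, from Mmp9 (-0.72 ± 0.13) to Cxcr2 (0.21 ± 0.17). Krt15, Cd68, Mmp9, Elovl3 and the lipid droplet gene Plin2 (-0.37 ± 0.11) were the only genes of these lists with an unadjusted p under 0.05. Over all genes 3.55% were lower at that mark.

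The 5 T cell genes all lay below 0, with a median of -0.16, from Cd8a (-0.53 ± 0.29) to Cd3e (-0.08 ± 0.14). The 4 muscle genes did too, with a median of -0.21, from Myh4 (-0.37 ± 0.19) to Acta1 (-0.16 ± 0.25). The 6 fibroblast genes had a median of 0.01, from Dcn (-0.08 ± 0.11) to Col3a1 (0.10 ± 0.16), and the 3 tested of 4 cartilage genes one of 0.01, from Acan (-0.07 ± 0.19) to Comp (0.02 ± 0.20). The part of any of these lists in the lower Flg2 and Lce1m was not tested.

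Promoter letters of the members are given as a description because AP-1 is a known regulator of the locus and NF-kB contains the targeted protein. In RefSeq windows of build GRCm38.p6, from 250 bases before to 50 after a start site, 32 of 39 members with a gene symbol were matched, with 33 windows. A wide form of the AP-1 motif, TGANTCA with any base at N, was searched, and it reads the same on both strands. It was in 8 of 33 windows (24.2%) and in 7.81% of all 32851 windows. It was in none of 17 Lce windows, which include genes of both the Lce1 and the Lce3 blocks, and in 5 of the 7 fused S100-type windows. The NF-kB consensus site, searched on both strands, was in 0 of 33 and in 8.46% of all windows. The 8 windows with this wide motif are those of Lor, Prr9, Ivl, Crnn, Flg2, Flg, Rptn and Tchhl1. The base at N is C or G, as in the usual AP-1 consensus, in Lor, Prr9 and Ivl. In Crnn, Flg2, Flg, Rptn and Tchhl1 it is A or T, so the 5 fused S100-type windows hold the wide form only. The narrower form was not counted over all windows. The part of the motif in any difference between the groups was not tested. Its place before the start site is given with each sequence, read 5′ to 3′ along the gene with the motif in capitals.
Lor (chr3:92083169-92083205, - strand, 48 bases before the start): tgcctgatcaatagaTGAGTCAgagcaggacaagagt
Prr9 (chr3:92124064-92124100, - strand, 138 bases): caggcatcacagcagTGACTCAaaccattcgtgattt
Ivl (chr3:92573830-92573866, - strand, 116 bases): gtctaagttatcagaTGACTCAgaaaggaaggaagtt
Crnn (chr3:93144678-93144714, + strand, 96 bases): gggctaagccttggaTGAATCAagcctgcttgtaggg
Flg2 (chr3:93197189-93197225, + strand, 69 bases): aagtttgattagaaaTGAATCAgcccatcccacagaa
Flg (chr3:93273428-93273464, + strand, 103 bases): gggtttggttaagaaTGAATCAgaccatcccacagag
Rptn (chr3:93393588-93393624, + strand, 96 bases): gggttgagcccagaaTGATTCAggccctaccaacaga
Tchhl1 (chr3:93468652-93468688, + strand, 87 bases): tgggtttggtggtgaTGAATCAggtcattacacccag
The Flg and Flg2 stretches are identical at 30 of 37 positions.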

How the data were processed

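RNA of 4 ears (2 RelAfl/fl, 2 K14Cre RelAfl/fl) was read on 4 one-colour arrays of 1 slide. The deposited processed intensity of each spot came from Agilent Feature Extraction 10.7.3.1, per the file headers, which subtracted the background and corrected spatial trends without scaling between arrays. The deposited mean signal and local background intensity, per the file headers, are uncorrected and were used for the normexp alternative. The authors' deposited series table holds a linear ratio for each spot. Its values track each array's processed signal, and its scaling is not given in the sources used here. It gave the same differences as centring each array on its median (Tchh 2.90 and Lce3a 0.56 in both), so those alternatives count as 1. The deposited flags (other values, 0 or 1) mark spots above background, saturated or outlying, per the file headers.

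From the processed signal, log2 minus the array's 75th percentile was taken (R 4.3.3, limma 3.58.1). The 3671 control spots and outlier spots were dropped, spots of 1 probe averaged, and probes kept for testing if above background on both arrays of a group (33664 of 55596). A gene took its tested probe with the highest mean. All 23753 genes entered 1 limma fit (lmFit, eBayes; 2 residual and 2.51 prior degrees of freedom), two-sided, with Benjamini-Hochberg adjustment at 0.05; an exact permutation test of 2 against 2 cannot go below p = 0.333. Bounds ("at least") set the bright group's mean against the higher of each dim array's lowest signal above background and the probe's own. Current symbols and promoters came from RefSeq tables (GRCm38.p6; 15349 genes matched, 2 member symbols updated); probe positions are the files' mm9, and exon or UTR placement was not analysed here. Values in every mouse were given for loricrin, involucrin, the fused S100-type genes, members with an unadjusted p under 0.05 and the extremes of the Lce blocks, and for other members where the text says so; from each of the 15 gene lists used, the highest and lowest gene, except 1 that is not reported here. Members and lists were chosen with earlier results of these data known. Alternatives covered background, scaling, filter, probe summary, variance model, replicate block, the dim corner and each mouse left out. Figures used matplotlib.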

Additional observations from a re-analysis of the deposited data

How the results depend on the processing

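With 2 mice a group, 1 mouse can decide a count. The 4 genes past the adjusted threshold in the whole table became 2 with quantile normalization or with a percentile taken over detected probes alone, 1 without a filter on dim probes or with probes above background on all 4 arrays, 14 with eBayes trend and robust, and 0 to 80 when each mouse was left out (80 without mutant 1, 1 without mutant 2, and 0 in limma without wild type 1 or wild type 2, where 4.85% and 7.90% of genes had an unadjusted p under 0.05). The 5 members at an unadjusted p under 0.05 became 8 with normexp background, array median centring or the series table, 3 without a filter, and 3 to 13 with each mouse left out (3 without wild type 1 or mutant 2, 10 without wild type 2, 13 without mutant 1). With the replicate block, 1 gene and 9 members were called; the labels do not say that a number marks a shared litter or day, and same-numbered mice deviated apart (correlation -0.19). A crossed replicate block, added after seeing the data, called 1 gene and 8 members. The involucrin difference turned from -0.17 to 0.16 without mutant 1 (range -0.50 to 0.16). The other 299 values of single genes kept their direction and side of the threshold under the alternatives run, and no member passed the adjusted threshold in any. These 299 are not separate checks of direction. The filter, probe-summary, variance-model, replicate-block and dim-corner alternatives left most single-gene differences as they were, so their direction could not turn. The series table repeats median centring. The medians over members and over Lce genes moved by less than the spread between mice, though both were below 0 without mutant 2 and that over Lce genes also without wild type 2. The array number limits the precision; dim probes such as Crnn and the intergenic RNAs lie near the background.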
